A study of Mus musculus with 6 samples.

Results

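The genes described here are 10 members of the stretch of mouse chromosome 5 that holds Ppargc1a, the gene for the transcriptional coactivator PGC-1alpha: Dhx15, Lgi2, Anapc4, Rbpj, Stim2, Pcdh7, Klf3, Uchl1, Slc30a9 and Atp8a1. They were taken by name from a list of neighbours, and every array probe set annotated to exactly 1 of them was used, which gave 30 of the 34945 probe sets with a single gene symbol, for 10 of 18161 genes. The genes were chosen by their KO and WT signals on these same arrays as well as by their place on the chromosome, so the differences given for them are descriptions and not tests. Striatal RNA came from PGC-1a KO mice (PGC-1a-/-) and from WT littermates (PGC-1a+/+), both bred from heterozygous parents, with 3 females aged 6 months in each group and 1 array per mouse. The deletion is carried by the whole animal, and no transgene or Cre line is named. Neither the strain background of the mice nor the strain in which the allele was made is named in the labels. One label, that of KO 3, names cytoplasmic RNA where the other 5 name total RNA, so values without that mouse are given where they matter.

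A targeted allele is passed on together with the chromosome segment around it, because recombination seldom separates close neighbours. If the allele was made in another strain than the background, littermates that differ at the gene tend to differ in that segment. Neighbouring genes can differ in expression for that reason, or because a change at the locus acts on adjacent transcription units. Neither strain is named, so whether the segment differed between these mice is not known. The comparison asks which neighbours of Ppargc1a differed between KO and WT striatum. A difference linked to the position of a gene and a difference that follows from loss of PGC-1alpha cannot be told apart in this design.

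All 10 genes lie on the same side of Ppargc1a, the distal one, towards higher coordinates. Counted in protein-coding genes of the RefSeq table for GRCm38.p6, Dhx15 is the immediate neighbour at position 1, Lgi2 is at 4, Anapc4 at 8, Rbpj at 12, Stim2 at 15, Pcdh7 at 16 and Klf3 at 27. Uchl1 at 48, Slc30a9 at 52 and Atp8a1 at 55 form a second, more distant group and are neighbours of Ppargc1a only in a loose sense. The order comes from that assembly, since the array annotation names no genome build.

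The targeted gene itself checked the labels. The Ppargc1a probe set with the largest difference, 1456395_at, had signals of 89.5, 87.9 and 68.4 in KO mice, against 397, 305 and 370.3 in WT mice. On the log2(signal + 16) scale, KO minus WT came to -1.93 (SE 0.14), with a limma adjusted p of 3e-05, and every KO mouse lay below every WT mouse for all 5 Ppargc1a probe sets. Markers of medium spiny neurons, the main neurons of the striatum, were plentiful. Of 10 listed, 8 were above the filter, and their summed signal was 26695 to 29341 in KO mice and 24723 to 29321 in WT mice. Of the 8, 7 were higher and 1 lower in KO mice, none called. Gpr6 was higher in every KO mouse than in any WT mouse (0.30, SE 0.09). Choroid plexus markers differed between the groups: 2 of 5 were above the filter, and their sum was 2812 to 3866 in KO mice against 1480 to 2387 in WT mice, nearly all of it Ttr (0.91, limma adjusted p = 0.035); whether this bears on the genes below was not tested. Summed signals of pan-neuronal, cortical, astrocyte, oligodendrocyte, microglial and vascular markers overlapped between the groups. The sums rest mostly on their brightest genes. All 5 oligodendrocyte markers above the filter were lower in KO mice, as were 5 of 6 vascular ones, none called. Mag was lower in every KO mouse than in any WT mouse (-0.43, SE 0.10). The pan-neuronal, cortical, astrocyte and microglial lists went in both directions. Single mice differed in the cortical list. Slc17a7, Neurod6, Tbr1 and Nrn1 were highest in KO 3 among KO mice and in WT 1 among WT mice. Lamp5, the brightest, was lowest in KO 3 among KO mice. Slc17a7 read 88.3, 107.6 and 279.1 in KO mice, against 242.6, 184.7 and 116.3 in WT mice. Whether the amount of cortical tissue differed between mice was not tested. RNA integrity was alike, with log2 ratios of 3' to 5' signal for GAPDH of -0.46 to -0.44 in KO mice and -0.50 to -0.43 in WT mice.

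Among the 10 genes, 2 probe sets stood out, Uchl1 1448260_at and 1 of the 7 for Atp8a1, both lower in KO striatum. Of the 30 probe sets, 27 lay above the filter on dim signals and 3 did not. In the limma fit over all 27022 probe sets above the filter, at an adjusted p under 0.05, 2 of the 27 were called, both lower, which is 7.41% beside 0.470% over the whole array (0.292% lower and 0.178% higher). Counted by gene, 2 of the 10 had a called probe set, beside 0.674% of all named genes. Since the list was made with this comparison known, nothing is read from these shares. The groups did not overlap for 4 of the 27, or 14.8%, beside 14.4% of all probe sets tested. The median difference of the 27 was 0.02, beside 0.00 over all probe sets tested, with 15 higher and 12 lower in KO mice. For the 25 that were not called, differences ran from -0.28 to 0.26, with SE from 0.08 to 0.25.

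**Figure D1:**
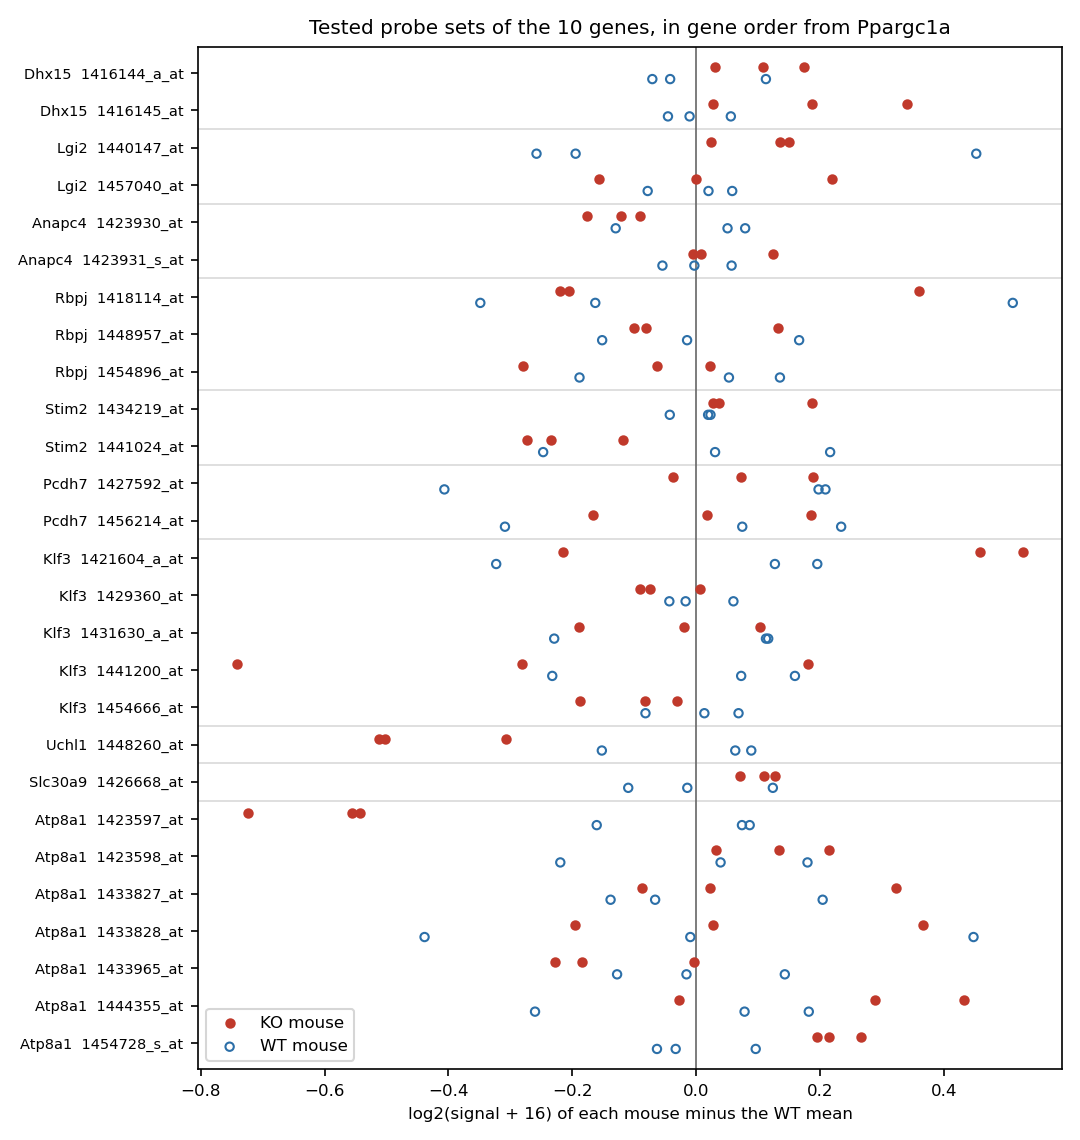
Each point is 1 mouse, KO in filled red above and WT in open blue below, for the 27 tested probe sets of the 10 genes in gene order from Ppargc1a; the x axis is log2(signal + 16) minus the WT mean of that probe set. The KO mice lie wholly below the WT mice for Uchl1 and for Atp8a1 1423597_at, and wholly above them for Atp8a1 1454728_s_at and, narrowly, Stim2 1434219_at.

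Uchl1 encodes an abundant neuronal deubiquitinase that hydrolyses small ubiquitin adducts and helps to keep free ubiquitin available. Its only probe set had signals of 1724, 1714 and 1977 in KO mice, against 2607, 2561 and 2203 in WT mice. All KO mice were below all WT mice, with KO 3 and WT 3 closest to each other. The means were 1805 ± 149 in KO mice and 2457 ± 221 in WT mice (SD, n = 3 each), so the KO signal was 26.5% lower. The difference was -0.44 (SE 0.08, 95% interval -0.63 to -0.26) on the log2(signal + 16) scale. Uchl1 sat close to the threshold. It was on the called side in 6 of 15 alternative settings, and the call needed KO 1 (-0.41 without it), KO 2 (-0.41), WT 1 (-0.40) and WT 2 (-0.41), while without KO 3 the difference was -0.51 and the call held. Loss of signal in bulk tissue can come from fewer cells of a type or from less RNA per cell, and these cannot be told apart here. The summed pan-neuronal markers were 23324 to 24478 in KO mice and 23236 to 24826 in WT mice, an overlap. Of the 6 markers 4 were lower and 2 higher in KO mice, none called. Snap25, the brightest, was lower in every KO mouse than in any WT mouse (-0.09, SE 0.06). Rbfox3 was higher in every KO mouse (0.15, SE 0.08). Whether the number of neurons differed was not tested.

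Slc30a9, which lies between Uchl1 and Atp8a1 in gene order, is a member of the zinc transporter family that has also been described as a nuclear receptor coactivator. Signals of its only probe set were 838, 872 and 861 in KO mice, against 870, 737 and 789 in WT mice. WT 1 lay within the KO values, so the groups overlapped. The difference was 0.10 (SE 0.08, 95% interval -0.07 to 0.28). Whether it differed from that of Uchl1 was not tested.

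Atp8a1 encodes a P4-type ATPase, a flippase that moves phosphatidylserine to the cytoplasmic leaflet of membranes. Its 7 probe sets disagreed. Probe set 1423597_at had signals of 915, 805 and 907 in KO mice, against 1412, 1424 and 1198 in WT mice, with no overlap. The means were 876 ± 61.4 in KO mice and 1345 ± 128 in WT mice (SD, n = 3 each), a signal 34.9% lower, and the difference was -0.61 (SE 0.09, 95% interval -0.80 to -0.42). This call held in 14 of 15 alternative settings, including each in which 1 mouse was left out, with differences from -0.69 to -0.55. It was lost when the variance model ignored signal intensity.

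The other Atp8a1 probe sets gave no fall of that size. Probe set 1454728_s_at, whose suffix marks probes shared between transcripts, pointed the other way. It had signals of 952, 905 and 917 in KO mice, against 770.3, 844 and 754 in WT mice, and the difference was 0.23 (SE 0.08, 95% interval 0.06 to 0.39). The groups did not overlap, but it was not called, nor in any of the 15 alternatives. The brightest, 1433827_at, had signals of 1144, 1412 and 1059.8 in KO mice, against 1022, 1300.3 and 1075 in WT mice. These groups overlapped, with a difference of 0.09 (SE 0.11). Probe set 1433965_at was at 785.5, 670.4 and 691 in KO mice and at 719, 871 and 779 in WT mice, also overlapping, with a difference of -0.14 (SE 0.09). The 3 dimmer sets, 1423598_at, 1444355_at and 1433828_at, gave differences of 0.13, 0.23 and 0.07, all with overlapping groups.

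The disagreement can also be set out mouse by mouse. The log2 signal of 1423597_at minus that of 1454728_s_at, taken mouse by mouse, was -0.06, -0.17 and -0.02 in KO mice, against 0.86, 0.74 and 0.66 in WT mice. Levels of different probe sets are not comparable, but the shift of this contrast between the groups is, and the groups did not overlap. Set against 1433827_at, 1423597_at differed by -0.32, -0.80 and -0.22 in KO mice and by 0.46, 0.13 and 0.15 in WT mice. The same contrast separated the groups for 5 of the 6 other Atp8a1 probe sets, the exception being the dim 1433828_at. Since 1423597_at was singled out by its own group difference, these contrasts mostly restate that difference and are not separate support for it. Of the 7 probe sets 5 were higher and 2 lower in KO mice, and their unweighted mean difference was 0.00 (SE 0.08), in which dim and bright sets count alike. Where each probe set lies on the transcript was not examined here, and whether its target sequence differs between the mice was not tested. Across the array, 35 genes had at least 3 probe sets above the filter and at least 1 call, and for 26 of them only 1 probe set was called.

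**Figure D2:**
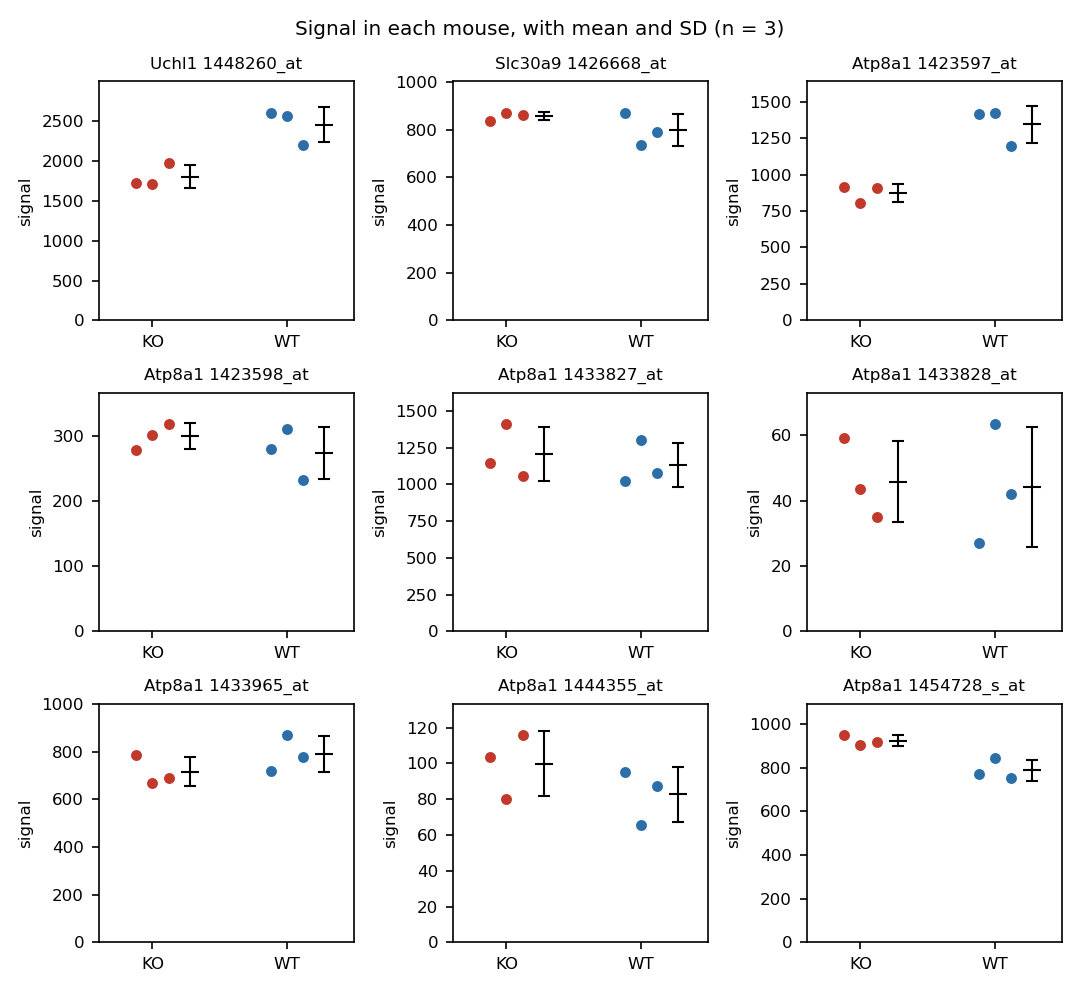
Signal (linear MAS5 units, y axis from 0) in each KO mouse (red, left) and WT mouse (blue, right) for Uchl1, Slc30a9 and the 7 Atp8a1 probe sets, with black bars for the mean and SD (n = 3). Uchl1 and Atp8a1 1423597_at are lower in every KO mouse than in any WT mouse, while the remaining Atp8a1 probe sets are level or slightly higher in KO mice, apart from 1433965_at at -0.14.

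By the Pearson correlation of log2(signal + 16) over the 6 arrays, the probe sets most like Atp8a1 1423597_at belonged to Mccc1 (0.998), Rnf26 (0.996), Rpusd1 (0.993), Trap1 (0.990) and Znf41-ps (0.989). Mccc1, Rnf26, Rpusd1 and Trap1 lie on other chromosomes, none of these 5 was called, and with arrays in 2 genotypes such values mostly restate the group difference. The same measure for Ppargc1a 1456395_at named Atp5g1 (0.997), 9430078K24Rik (0.992), Ide (0.991), Cox5a (0.991) and Ilvbl (0.991), with no member of the list among them.

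The RefSeq promoter windows of the 3 genes of the distant group are shown because they lie within a few positions of each other in gene order and read differently: Uchl1 lower, Slc30a9 level, and Atp8a1 lower in 1 probe set. Each runs from 250 bases before to 50 bases after the annotated start in GRCm38.p6, written 5′ to 3′ on the strand of the gene, with CpG dinucleotides in capitals. The Uchl1 window is chr5:66675871-66676170 on the plus strand, the Slc30a9 window chr5:67306705-67307004 on the plus strand and the Atp8a1 window chr5:67847382-67847681 on the minus strand.
Uchl1: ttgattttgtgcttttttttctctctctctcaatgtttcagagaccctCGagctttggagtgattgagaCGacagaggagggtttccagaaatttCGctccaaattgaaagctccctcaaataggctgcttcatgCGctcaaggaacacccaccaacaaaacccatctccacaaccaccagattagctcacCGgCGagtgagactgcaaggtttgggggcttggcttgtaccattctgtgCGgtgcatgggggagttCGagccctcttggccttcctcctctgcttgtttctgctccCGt
Slc30a9: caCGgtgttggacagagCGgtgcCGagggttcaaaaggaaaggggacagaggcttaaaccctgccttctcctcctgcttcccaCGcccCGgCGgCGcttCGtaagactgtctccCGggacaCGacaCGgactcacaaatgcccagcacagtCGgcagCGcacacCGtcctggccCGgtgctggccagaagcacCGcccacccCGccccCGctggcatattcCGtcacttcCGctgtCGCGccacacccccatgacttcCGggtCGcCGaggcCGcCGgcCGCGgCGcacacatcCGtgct
Atp8a1: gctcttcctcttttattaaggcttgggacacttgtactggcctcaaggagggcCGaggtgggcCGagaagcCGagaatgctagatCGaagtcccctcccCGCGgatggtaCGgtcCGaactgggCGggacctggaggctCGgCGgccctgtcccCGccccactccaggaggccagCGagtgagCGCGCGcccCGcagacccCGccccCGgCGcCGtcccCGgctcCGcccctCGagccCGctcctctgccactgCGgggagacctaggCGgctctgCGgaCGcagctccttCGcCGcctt
The Uchl1 window held 9 CpG dinucleotides and 50.7% G or C, close to the median window in the table (7 CpG, 52.7%). The Slc30a9 and Atp8a1 windows held 31 CpG each, with 67.3% and 70.3% G or C. Across the 10 genes, Pcdh7 (11 CpG) was the only other window under 26. The windows were searched on both strands for the binding element of ERR nuclear receptors, partners of PGC-1alpha (TNAAGGTCA), the core of the NRF1 element (GCGCATGCG) and the cAMP response element (TGACGTCA). None of the 3 was found in any window of the 10 genes, and over all 32851 windows of the table they occurred in 1.28%, 1.75% and 1.79%.

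Dhx15, the immediate neighbour, encodes a DEAH-box RNA helicase that takes spliceosomes apart. Its probe set 1416145_at had signals of 1275, 1419.7 and 1139 in KO mice, against 1109, 1082 and 1163 in WT mice. WT 3 was above KO 3, so the groups overlapped, and the difference was 0.19 (SE 0.09, 95% interval 0.00 to 0.37). The brighter set, 1416144_a_at, was at 1478, 1399.9 and 1549 in KO mice and 1483, 1304 and 1331 in WT mice, with a difference of 0.10 (SE 0.08). Both probe sets were thus slightly higher in KO mice on average, and neither was called in any of the 15 alternatives. Anapc4, a scaffold subunit of the anaphase-promoting complex, the ubiquitin ligase of mitosis, was level. Its brighter set 1423931_s_at was at 535.5, 530.3 and 581.5 in KO mice and at 512, 554 and 531 in WT mice, a difference of 0.04 (SE 0.08), and the dimmer 1423930_at gave -0.13 (SE 0.13).

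Rbpj is the DNA-binding factor of the Notch pathway, and Klf3 is a zinc-finger repressor that recruits CtBP. The brightest Rbpj probe set, 1454896_at, had signals of 167, 209 and 196 in KO mice, against 227, 178 and 214 in WT mice. The groups overlapped, with a difference of -0.11 (SE 0.13), and the other 2 Rbpj sets gave -0.02 each. The brightest Klf3 set, 1454666_at, was at 263, 273 and 243 in KO mice and 293, 282 and 263 in WT mice. These overlapped as well, with a difference of -0.10 (SE 0.10). The other 4 Klf3 sets above the filter ran from -0.28 to 0.26, and both extremes came from dim sets with wide errors (SE 0.24 each). A further 2 Klf3 sets lay below the filter, at 3.6 to 26.7 in KO mice and 1.0 to 28.5 in WT mice.

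Stim2 is a calcium sensor of the endoplasmic reticulum that opens store-operated channels. Its brighter probe set, 1434219_at, had signals of 515, 578 and 519 in KO mice, against 490.2, 514 and 512 in WT mice. No WT mouse reached the lowest KO mouse, but the margin was narrow, and the difference was 0.08 (SE 0.08, 95% interval -0.10 to 0.27). Its dimmer set gave -0.21 (SE 0.17). Lgi2, a secreted leucine-rich repeat protein of the family that binds ADAM receptors at synapses, read 636, 629.6 and 582 by 1440147_at in KO mice, against 788, 476 and 498 in WT mice. WT 1 stood apart from the other WT mice here, and the difference of 0.10 (SE 0.15) became 0.33 without WT 1 and -0.03 without WT 2, never called. Pcdh7, a protocadherin of the delta group, read 445, 502 and 389 by 1456214_at in KO mice and 463, 351 and 519 in WT mice, a difference of 0.01 (SE 0.14) with full overlap. A second Pcdh7 set gave 0.07 (SE 0.20), and the last was below the filter, at 3.9, 12.2 and 8.6 in KO mice and 13.9, 15.6 and 18.9 in WT mice.

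To set the 10 genes in their surroundings, every protein-coding gene within 100 positions of Ppargc1a on either side was taken by position alone, with 1 value per gene from its brightest probe set above the filter. Of these 200 genes 139 were measured, with 72 higher and 67 lower in KO mice and a median difference of 0.01. At an adjusted p under 0.05 in limma 2 were called (1.44%), Uchl1 lower and Gabra2 higher, beside 0.447% of all 12309 named genes (0.301% lower and 0.146% higher). Uchl1 was chosen with its values known, and without the 10 genes the block gave 1 call among 129 genes (0.775%), that of Gabra2. Because Atp8a1 1423597_at is not the brightest set of its gene, Atp8a1 does not enter this count. The 70 genes measured on the proximal side gave 0 calls, with 3 at an unadjusted p under 0.05. The 69 on the distal side gave 2 calls, with 9 at an unadjusted p under 0.05. On the rest of the chromosome 0 of 611 were called in limma, with 46 at an unadjusted p under 0.05. The difference between the 2 sides was not tested.

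**Figure D3:**
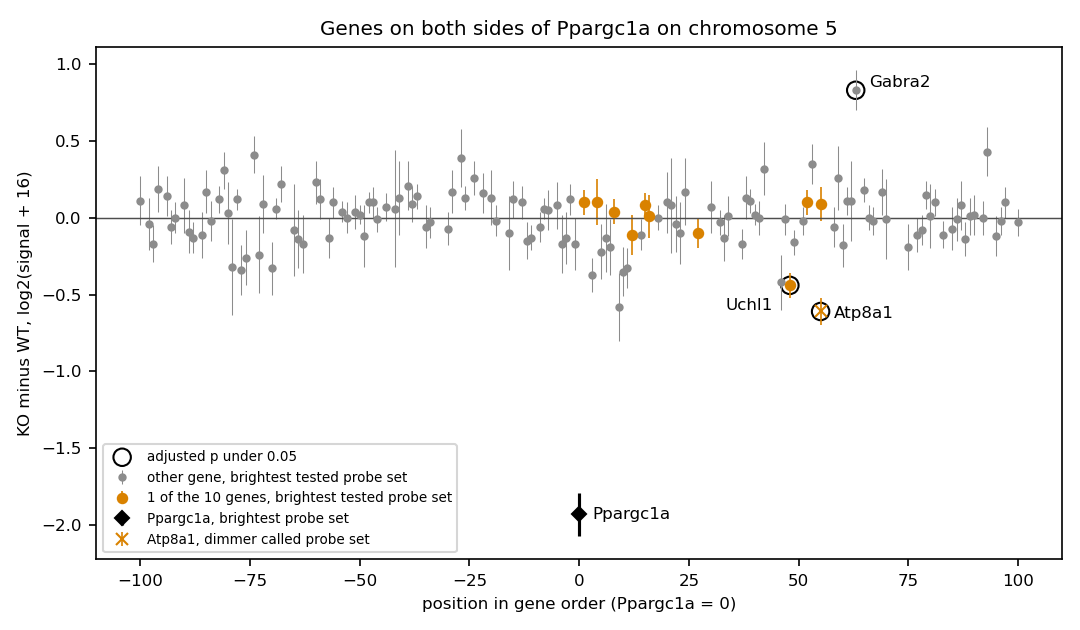
KO minus WT difference in log2(signal + 16), with SE bars, for the 139 genes measured within 100 positions of Ppargc1a (x axis, gene order with Ppargc1a at 0); the 10 genes are orange, black rings mark an adjusted p under 0.05, and the cross is the dimmer Atp8a1 probe set that was called. The calls other than Ppargc1a all lie on the distal side, Uchl1 at 48, Atp8a1 at 55 and Gabra2 at 63.

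The genes closest to Ppargc1a were not called on either side. On the proximal side Adgra3 (-0.17, SE 0.17), Kcnip4 (0.12, SE 0.10), Pacrgl (-0.13, SE 0.17) and Slit2 (-0.17, SE 0.19) had overlapping groups. On the distal side Dhx15 and Lgi2 are described above, and Sepsecs gave -0.22 (SE 0.18). Ccdc149, a coiled-coil protein gene at position 3, was at 209.5, 195 and 220.5 in KO mice, against 291, 244 and 289.9 in WT mice. Its groups did not overlap, and the difference was -0.37 (SE 0.11), with a limma adjusted p of 0.25. Among the 9 genes measured at distal positions 1 to 10, 6 were lower in KO mice, the median was -0.19, and the groups did not overlap for 3, beside 15.1% of all named genes. None of the 9 was called in limma, with 2 at an unadjusted p under 0.05 (22.2%, beside 9.7% of all named genes). Over the whole span from Ppargc1a to Atp8a1, those first positions included, 29 genes outside the list were measured and 0 were called in limma. Of the 29, 5 were at an unadjusted p under 0.05 (17.2%, beside the same 9.7%). The genes next to Uchl1 in that order, Apbb2 (-0.01, SE 0.10) and Limch1 (-0.16, SE 0.08, groups not overlapping), were looked at after their values were seen and were not called either.

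Gabra2, 8 positions beyond Atp8a1, encodes the alpha2 subunit of GABA-A receptors. Its expression is known to differ between inbred mouse strains. No strain is named for these mice, and whether strain bears on the difference was not tested. Gabra2 was higher in KO striatum in all 3 of its probe sets above the filter. By 1455444_at its signals were 858.5, 891 and 748 in KO mice, against 373, 464 and 562 in WT mice. The difference was 0.83 (SE 0.13, limma adjusted p = 0.013), and 1443865_at and 1421738_at gave 0.84 (adjusted p = 0.0021) and 0.78 (adjusted p = 0.011) in the same fit. The call by 1443865_at held without any 1 mouse, while 1421738_at lost it without KO 1 (0.053) or KO 2 (0.064), and 1455444_at without KO 1 (0.064), KO 2 (0.076) or WT 2 (0.050). Without the intensity trend of the variance model all 3 missed the threshold (0.052 for 1443865_at, 0.21 for 1421738_at and 0.24 for 1455444_at). Probe set 1455444_at also lost its call without the filter on dim probe sets. Over the 15 alternatives the call held 14 times for 1443865_at, 12 times for 1421738_at and 10 times for 1455444_at. Its cluster neighbours Gabrg1, Gabra4 and Gabrb1 were not called, with differences from -0.26 to 0.18 over 7 probe sets. Unlike Atp8a1, where 1 of 7 probe sets was called, the 3 Gabra2 probe sets moved in the same direction and by a similar amount.

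Genes that work with or resemble the 10 were listed from textbook knowledge, without regard to position, to see whether their systems changed. Some of them lie on chromosome 5 as well, such as Ctbp1 at position -102 and Adam22 at -292. Of 140 such genes 116 were measured, 59 higher and 57 lower in KO mice, with a median difference of 0.00. None was called in limma, with 8 at an unadjusted p under 0.05 (6.9%, beside 9.7% of all named genes). The groups did not overlap for 11 (9.5%, beside 15.1% of all named genes).

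In each list the genes named are the 2 with the smallest p, which need not have the largest differences. The ubiquitin hydrolase list of Uchl1 had 3 of 9 genes measured, 1 higher and 2 lower, with Bap1 at 0.08 and Uchl5 at -0.08. The P4-ATPase list of Atp8a1 had 4 higher and 6 lower (median -0.02), with Atp10d at 0.35 (SE 0.18) and Atp8b2 at -0.12. The 14 genes measured in the DEAH-box helicase list, among them Tfip11, which is not a helicase, gave a median of -0.02. Its named genes were Dhx40 at -0.13 and Dhx9 at 0.10. The 15 other subunits and activators of the anaphase-promoting complex had a median of -0.01, with Anapc1 at 0.21 and Anapc13 at -0.16. The Notch list had 11 higher and 11 lower, and its named genes were the coactivator Maml1 (0.34, SE 0.15) and the target Hey1 (0.24, SE 0.11). None of these passed the threshold.

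Among the calcium genes around Stim2, the channel subunit Orai3 read 51.2, 60.2 and 84.1 in KO mice, against 37.6, 41.2 and 37.5 in WT mice. The STIM activator Stimate read 93.2, 76.9 and 96.4 in KO mice, against 117, 125 and 116 in WT mice. Their groups did not overlap, in opposite directions (0.55, SE 0.19 and -0.37, SE 0.14), but the limma adjusted p was 0.37 and 0.41. Klf9, a glucocorticoid-responsive factor of the Klf3 family, read 7174, 6467 and 7198 in KO mice, against 6140.5, 5807 and 5308.5 in WT mice. It gave 0.27 (SE 0.07, limma adjusted p = 0.20), and passed only after quantile normalization (0.32, adjusted p = 0.033). In the protocadherin list Pcdh8 gave 0.58 (SE 0.24, limma adjusted p = 0.48) with WT 3 among the KO values, and without WT 3 it passed (0.96, adjusted p = 0.01). Pcdh11x gave -0.25 (SE 0.10). In the LGI list the receptors Adam11 and Adam22 gave -0.33 and 0.16, and in the zinc list the metal-responsive factor Mtf1 gave 0.41 (SE 0.15) and the transporter Slc39a1 -0.19, without passing. In the KLF list Klf5 gave -0.18.

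**Figure D4:**
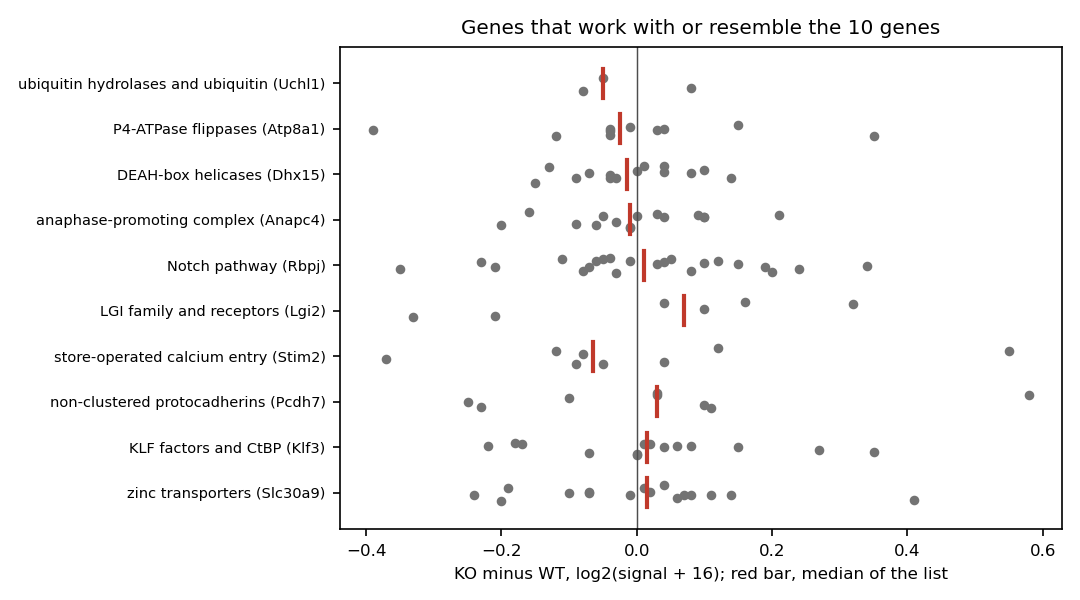
KO minus WT difference in log2(signal + 16) (x axis) for the 116 measured genes that work with or resemble the 10 genes, 1 row per list, with the median of each list as a red bar. List medians lie between -0.06 and 0.07, and no gene passed an adjusted p of 0.05.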

How the data were processed

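Striatal RNA of 3 KO and 3 WT mice was hybridised to 1 Affymetrix array each. The authors deposited 1 linear intensity per probe set and array, made with MAS5 per the submitters' processing notes, which name no version or settings. The deposited arrays shared a trimmed mean of 150.0, so changes are relative to the rest of the array. Probe sets with 1 gene symbol were named through gene identifiers and the GRCm38.p6 gene table (34943 of 34945 matched). Signals were analysed as log2(signal + 16), which understates changes of dim probe sets. The 64 control probe sets were left out, as were those whose mean log2 value did not exceed the array's 40th percentile (a signal of about 26.8), leaving 27022. KO and WT were compared with limma 3.58.1 in R 4.3.3 (intensity trend, Benjamini-Hochberg over all probe sets, threshold 0.05). The procedure was tested on simulated data. The number of arrays limits precision. The 10 genes and all lists were chosen with earlier results of these data known. Genes named are the 10, the called genes and the 4 nearest measured genes per side of the flanking block, the called genes of each partner list or else the 2 with the smallest p, and the 5 most like genes by correlation; a few others are marked as chosen after their values were seen or as cluster neighbours of Gabra2. The alternatives changed the offset, filter, normalization, variance model, replicate block, value per gene and the mice used.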

Additional observations from a re-analysis of the deposited data

How the results depend on the processing

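In the 15 alternatives the number of called probe sets among the 10 genes was 2 unless stated here: it was 1 with an offset of 1, without a filter, with arrays centred on their median and with the replicate block, 0 without the intensity trend, and 1 to 2 when 1 mouse was left out. The lost call was that of Uchl1 (limma adjusted p 0.046 as reported, 0.13 with the replicate block, 0.024 to 0.36 over the alternatives), and without the trend that of Atp8a1 as well (0.24). No called probe set of the 10 genes changed direction under any of them. In the flanking block of 139 genes the count of 2 became 1 with an offset of 1, with centring, with the replicate block and when all probe sets of a gene were averaged, 0 without a filter or without the trend, and 0 to 2 when 1 mouse was left out. Called Ppargc1a probe sets numbered 3 of 5 without the trend and 5 without any 1 mouse. Partner genes gave 1 call with quantile normalization and 0 to 1 when 1 mouse was left out. Over the whole array 127 calls became 52 without a filter, 25 without the trend and 65 to 102 with 1 mouse left out. Centring gave 59 higher and 57 lower, against 48 and 79. Same-numbered mice did not deviate together (correlations -0.009, -0.035 and 0.017). Mice with unlike numbers gave values from -0.041 to 0.049, also near 0. This check therefore cannot settle whether the numbers pair the mice.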

Other observations

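Outside the list, a gene on the proximal side that was named only after its values were seen is Htt, the huntingtin gene, 74 positions from Ppargc1a. By 1435539_at it read 215, 235 and 212 in KO mice, against 142, 174 and 173.5 in WT mice. The groups did not overlap, the difference was 0.41 (SE 0.12) and the limma adjusted p was 0.24, so it was not called. On the distal side Kit, a receptor tyrosine kinase gene at position 93, gave 0.43 (SE 0.16, adjusted p = 0.40) with KO 3 among the WT values.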
